A study of Mus musculus with 13 samples.

Results

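The genes described here carry out or time the copying of DNA in S phase. They are 44 named genes of replication licensing, DNA synthesis and G1/S control, each read from the probe set annotated to that gene alone that had the highest mean signal over the 13 arrays. A named probe set was found for 43 of the 44, with Chaf1a as the exception. Of these, 41 stood above the filter on low signal (a mean of 56.9 array units) and were tested among 12918 genes, while Orc1 and Tyms fell below it. RNA of the whole brain had been hybridised to Affymetrix arrays at embryonic day 18.5, 1 mouse embryo per array, from 6 wild-type embryos and 7 embryos with the Meg3 knock-out. Meg3 is transcribed into a long non-coding RNA from the maternal copy of an imprinted region on chromosome 12. How the knock-out allele was built and which parent passed it on are not stated in the labels, nor is any other genotype or treatment of either group. The embryos came from 5 litters. Litter 148 gave 1 knock-out, litter 219 gave 1 knock-out and 2 wild-type, litter 238 gave 2 knock-out and 1 wild-type, litter 250 gave 2 of each and litter 262 gave 1 of each.

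Before S phase, the origin recognition complex, Cdc6 and Cdt1 load the Mcm2 to Mcm7 helicase ring onto DNA. The ring is switched on by Cdc45 and the GINS complex, after which primase and the replicative polymerases copy both strands. E2F transcription factors, released from the retinoblastoma protein by cyclin D and cyclin E kinases, drive many of these genes at the G1/S transition. In the embryonic brain these messages mark dividing cells, chiefly the progenitors of the ventricular zones and of the cerebellar granule layer. Whole tissue was measured, so fewer dividing cells and less message per cell cannot be told apart.

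The arrays gave the labelled genotype. Wild-type brains gave a Meg3 signal of 4955 ± 1374 (SD, n = 6), and the 7 knock-out brains one of 378 ± 106 (SD), a 12.5-fold difference between mean values of log2(signal + 16) (limma adjusted p = 1.3e-07). Of 18 neuronal marker genes listed, 17 stood above the filter. So did 12918 of the 18193 genes with a probe set, and all 8 endothelial and all 7 meningeal genes listed. The neuronal count is therefore no check of the tissue. Correlations between pairs of arrays over all genes tested ranged from 0.893 to 0.990. The lowest pair was wild-type 1 with wild-type 2, the 2 wild-type embryos of litter 219. The ratio of 3' to 5' signal for Actb, a sign of RNA quality, was 2.92 on wild-type 2 and 1.81 on knock-out 1, against 1.32 to 1.495 on the others. The mean signal of an array relative to the others (its array factor) ran from 0.914 on wild-type 1 and 0.927 on wild-type 2 to 1.06 on knock-out 2 and 1.09 on knock-out 5.

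E2F sites are the best known shared element of replication gene promoters. The stretch upstream of the transcription start is therefore shown for 4 of the genes described in full below that hold such a site there. RefSeq windows of 300 bases (250 before to 50 after the start, build GRCm38.p6) were found for 34 of the 44 genes. They were searched on both strands for TTGGCGC or TTCCCGC or TTCGCGC or TTGCCGC, and 1 match may overlap another. Of the 34 genes, 21 held at least 1 match, a share of 61.8%, against 10.9% of all 27025 genes with a window and 19.3% of the 10407 tested genes with one. The 250 bases before the start are printed 5′ to 3′ on the gene's own strand, with matches on either strand in capitals.
Fen1 (chr19:10203922-10204171, minus strand): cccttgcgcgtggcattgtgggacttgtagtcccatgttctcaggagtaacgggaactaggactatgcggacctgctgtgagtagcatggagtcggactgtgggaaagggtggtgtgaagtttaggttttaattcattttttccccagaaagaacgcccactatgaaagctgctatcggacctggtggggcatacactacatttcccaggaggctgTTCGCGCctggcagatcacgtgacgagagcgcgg
Rrm2 (chr12:24708004-24708253, plus strand): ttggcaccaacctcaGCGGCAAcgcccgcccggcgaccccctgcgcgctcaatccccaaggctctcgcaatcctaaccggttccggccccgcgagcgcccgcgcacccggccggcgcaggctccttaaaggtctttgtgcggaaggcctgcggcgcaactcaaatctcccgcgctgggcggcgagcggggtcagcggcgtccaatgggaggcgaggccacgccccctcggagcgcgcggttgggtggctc
Mcm5 (chr8:75109259-75109508, plus strand): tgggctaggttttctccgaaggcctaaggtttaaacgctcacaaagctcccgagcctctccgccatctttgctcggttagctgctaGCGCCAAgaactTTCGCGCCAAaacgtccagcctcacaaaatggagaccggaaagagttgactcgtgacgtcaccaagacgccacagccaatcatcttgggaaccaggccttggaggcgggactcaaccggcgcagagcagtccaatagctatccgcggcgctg
Chaf1b (chr16:93883651-93883900, plus strand): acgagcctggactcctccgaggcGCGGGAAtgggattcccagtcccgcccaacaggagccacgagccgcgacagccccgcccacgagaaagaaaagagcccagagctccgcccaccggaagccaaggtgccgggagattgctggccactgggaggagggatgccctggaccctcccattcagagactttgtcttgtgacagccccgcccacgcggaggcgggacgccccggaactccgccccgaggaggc
The matches begin 34 bases before the start in Fen1, 235 in Rrm2 and 227 in Chaf1b. The window of a second Fen1 start, not printed, held no match. In Mcm5 they begin 164, 152 and 149 bases before it, and the latter pair overlap as 1 site read from both strands. Cdt1 and Mcm3 hold matches only in the 50 bases after the start, which are not printed. A match describes the sequence and does not show that a factor binds there.

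No replication or S phase gene passed the test between knock-out and wild-type brains. Taken between mean values of log2(signal + 16), the largest knock-out to wild-type folds were 1.19 for Ccne2 and 1.18 for Fen1, and the smallest were 0.841 for Cdt1 and 0.857 for Cdc45. In knock-out brains 27 of the 41 means were lower and 14 higher, and their median difference was -0.051 on the scale of log2(signal + 16), beside 0.044 over all genes tested. A lower mean was found for 34.6% of all genes. With litter as a fixed block 21 of the 41 means were lower, with a median of -0.0018 beside 0.041 over all genes. With each array centred on its median 38 were lower, with medians of -0.248 and -0.153. The share of all genes with a lower mean was not counted under these settings. The limma adjusted p was 1.00 for each of the 41, and 0 passed, where 0.0232% of all genes (3 of 12918) did. At an unadjusted limma p under 0.05, 0 were lower (0.255% of all genes) and 0 were higher (1.71% of all genes). In 0 of the 41 did the 2 genotypes fail to overlap, against 0.0774% of all genes, and 0 reached a two-sided exact permutation p under 0.05, against 2.08% of all genes. The smallest exact p among the members was 0.0921 and the smallest these groups allow is 0.00117.

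The 95% intervals show the size of difference left possible for the probe set used of each gene, on the values as deposited. For 35 of the 41 genes the interval lay within 1.5-fold in either direction, as it did for 79.8% of all genes. The standard error ranged from 0.093 for Rfc2 to 0.28 for Ccne2 on the log2 scale. None of these intervals reached below -0.68 or above 0.85. In a fit of all probe sets with a single gene symbol, others of the same genes reached further. The interval of a weaker Ccnd2 probe set ran from -0.96 to 1.17. Centring each array on its median moved the estimates too, as for Cdt1 from -0.25 to -0.45. These differences are on log2(signal + 16), which understates differences of weakly detected genes.

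**Figure D1:**
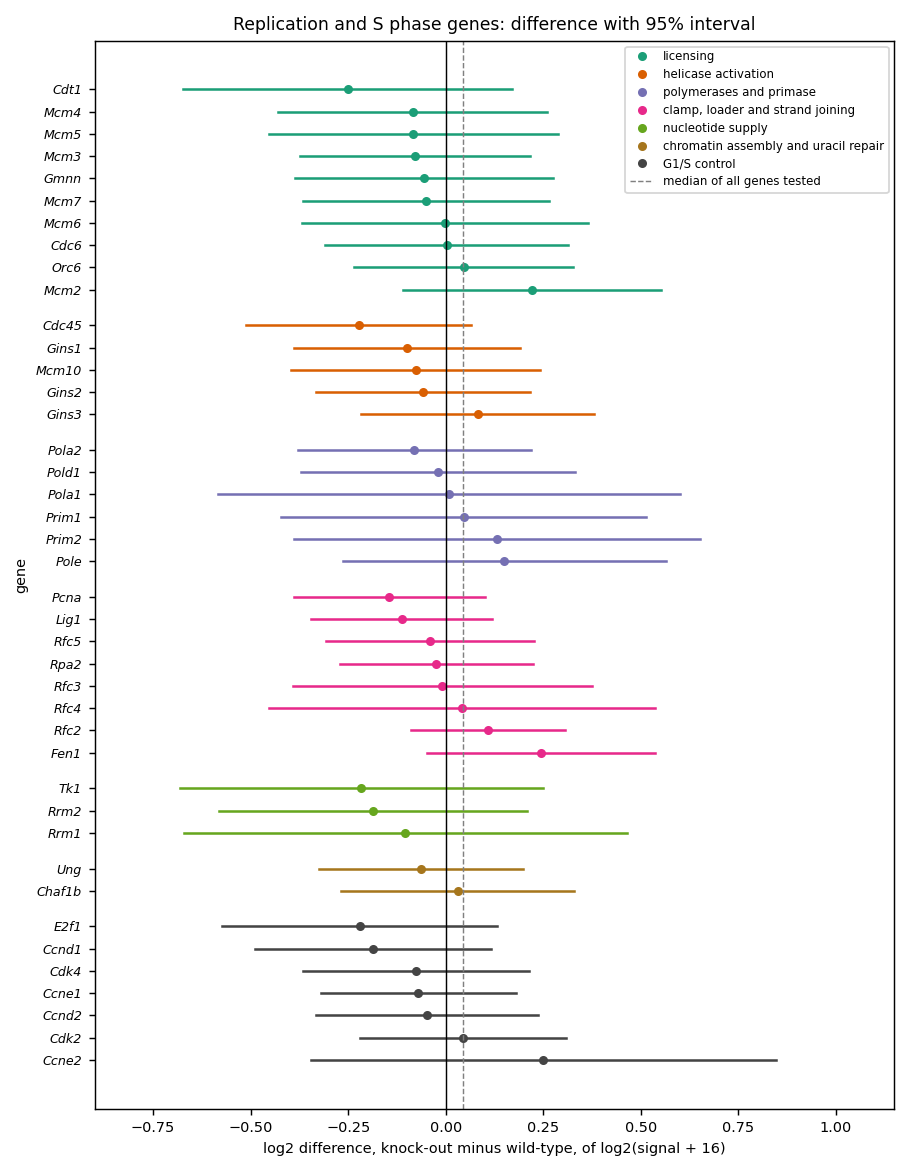
Log2 difference, knock-out minus wild-type, of log2(signal + 16) on the horizontal axis for the 41 tested genes, coloured and grouped by role, with bars for the 95% interval (7 knock-out and 6 wild-type arrays) and a dashed line at the median of all genes tested. Every bar crosses 0, and the points run from -0.25 for Cdt1 to 0.25 for Ccne2.

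Licensing genes load the helicase before S phase, and their median difference was -0.053 over 10 tested genes, 7 of them with a lower mean. Cdt1, the loading factor that geminin holds in check, ranged from 466 to 942 (median 639) in wild-type and from 356 to 763 (median 535) in knock-out brains. Its mean was lower by -0.25 ± 0.20 (log2, SE), within the spread between embryos (exact permutation p = 0.27). Geminin itself (Gmnn) ranged from 248 to 466 (median 353) in wild-type and from 253 to 506 (median 312) in knock-out brains. The 2 ranges nearly coincided, and the difference was -0.055 ± 0.155 (exact permutation p = 0.71). Cdc6, which recruits the helicase to origins, ranged from 71.9 to 116 (median 89.1) in wild-type and from 70.8 to 136 (median 88.7) in knock-out brains. Its difference of 0.0021 ± 0.1465 was the smallest of the genes described in full. Orc1, the large subunit of the origin recognition complex, was close to the filter at 55.0 ± 17.0 (SD, n = 6) in wild-type and 58.5 ± 30.0 (SD, n = 7) in knock-out brains. Orc6 had a difference of 0.046 ± 0.132.

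Of the helicase ring, Mcm2 to Mcm7, 5 of 6 genes had a lower mean and the median difference was -0.065. Mcm2 was the exception. It ranged from 419 to 832 (median 603) in wild-type and from 606 to 883 (median 657) in knock-out brains, a difference of 0.22 ± 0.16 (exact permutation p = 0.20). The lowest knock-out embryo stood near the wild-type median. Its second probe set gave -0.19, so the direction for Mcm2 depends on the probe set. Mcm5, whose promoter is shown above, ranged from 772 to 1227 (median 1122) in wild-type and from 667 to 1473 (median 1037) in knock-out brains. The knock-out group held both the highest and the lowest embryos, and the difference was -0.083 ± 0.174. Mcm3 ranged from 479 to 626 (median 544) in wild-type and from 359 to 710 (median 511) in knock-out brains, and Mcm4 had a difference of -0.085 ± 0.161. Mcm6 and Mcm7 had a difference of -0.0027 ± 0.1721 and -0.051 ± 0.148. For Mcm3, Mcm4, Mcm6 and Mcm7 as well, probe sets of the same gene differed in sign.

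Helicase activation genes had a median difference of -0.077, with 4 of 5 lower. Cdc45, which joins the ring to make the active helicase, ranged from 143 to 183 (median 159) in wild-type and from 94.5 to 187 (median 149) in knock-out brains. Wild-type embryos lay close together while knock-out embryos were spread on both sides of them. The difference was -0.22 ± 0.14 (exact permutation p = 0.13), and the second Cdc45 probe set gave 0.27. Gins1, a GINS subunit, ranged from 355 to 443 (median 371) in wild-type and from 240 to 487 (median 372) in knock-out brains. The medians almost met, and the difference was -0.10 ± 0.14. Mcm10, which helps to start the active helicase, ranged from 109 to 152 (median 135) in wild-type and from 74.3 to 168 (median 128) in knock-out brains. Gins2 and Gins3 had a difference of -0.059 ± 0.129 and 0.081 ± 0.140.

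Polymerase and primase genes had a median difference of 0.027, with 4 of 6 higher. Pole, the catalytic subunit of the leading strand polymerase epsilon, ranged from 92.0 to 306 (median 171) in wild-type and from 159 to 237 (median 191) in knock-out brains. The wild-type embryos held both extremes, and the difference was 0.15 ± 0.19 (exact permutation p = 0.51). Pola2, a regulatory subunit of polymerase alpha, ranged from 196 to 367 (median 343) in wild-type and from 249 to 354 (median 312) in knock-out brains, a difference of -0.080 ± 0.141. The lowest wild-type value came from wild-type 2, the array with the highest Actb ratio. The Pola2 difference was -0.21 without wild-type 2 and -0.17 when the fit held the Actb ratio. It was -0.25 once wild-type 2 and knock-out 1 were both left out, where it reached an unadjusted limma p under 0.05 as 0.526% of all genes did on the lower side. Pola1, Prim1, Prim2 and Pold1 had differences between -0.019 and 0.13.

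Genes of the sliding clamp, its loader and strand joining had a median difference of -0.016, with 5 of 8 lower. Pcna, the clamp that holds polymerases on DNA, ranged from 5531 to 6566 (median 6221) in wild-type and from 4338 to 7128 (median 5383) in knock-out brains. Of the 7 knock-out embryos, knock-out 2 stood above every wild-type embryo. Knock-out 1, knock-out 4, knock-out 5 and knock-out 6 stood below every wild-type embryo, at 4338 to 5383. The Pcna difference was -0.14 ± 0.11 (exact permutation p = 0.19). Fen1, the nuclease that trims Okazaki fragments, ranged from 529 to 932 (median 829) in wild-type and from 715 to 1085 (median 943) in knock-out brains. It had the smallest p of the group, with a difference of 0.24 ± 0.14 and an interval from -0.047 to 0.54 (exact permutation p = 0.0921). Its knock-out mean was the higher one in all 4 litters that held both genotypes, but its second probe set gave -0.031. Of the clamp loader, Rfc3 ranged from 422 to 783 (median 603) in wild-type and from 346 to 781 (median 605) in knock-out brains. Rfc5 ranged from 470 to 616 (median 552) in wild-type and from 438 to 767 (median 536) in knock-out brains. The medians of both genes were close between genotypes, with differences of -0.0084 ± 0.1798 and -0.041 ± 0.125, and for Rfc5 the knock-out embryos were the more widely spread. Rfc2 and Rfc4 had a difference of 0.11 ± 0.09 and 0.042 ± 0.232. The single-strand binding subunit Rpa2 and DNA ligase Lig1 had a difference of -0.024 ± 0.116 and -0.11 ± 0.11.

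All 3 tested genes of nucleotide supply had a lower mean. Rrm2, the small subunit of ribonucleotide reductase that makes deoxynucleotides, ranged from 1600 to 2612 (median 1887) in wild-type and from 1165 to 2570 (median 1526) in knock-out brains. The median was lower while the top of both ranges met, and the difference was -0.19 ± 0.19 (exact permutation p = 0.36). Its 3 probe sets ran from -0.22 to -0.096, all lower. Tk1, thymidine kinase, ranged from 156 to 295 (median 188) in wild-type and from 95.8 to 285 (median 167) in knock-out brains, a difference of -0.22 ± 0.22. Rrm1 had a difference of -0.10 ± 0.27, but its second probe set above the filter gave 0.19. Tyms, which makes thymidylate, was below the filter at 40.6 ± 10.7 (SD, n = 6) in wild-type and 50.4 ± 20.5 (SD, n = 7) in knock-out brains.

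Chaf1b, a subunit of the factor that places histones on new DNA, ranged from 186 to 359 (median 257) in wild-type and from 222 to 336 (median 253) in knock-out brains. Ung, which removes uracil from DNA, ranged from 207 to 266 (median 217) in wild-type and from 173 to 287 (median 207) in knock-out brains. Neither difference was larger than the spread between embryos, with values of 0.030 ± 0.140 and -0.064 ± 0.123.

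Among the genes that control entry into S phase, 5 of 7 had a lower mean and the median difference was -0.070. Ccnd1, cyclin D1, ranged from 795 to 1288 (median 1145) in wild-type and from 694 to 1204 (median 962) in knock-out brains, a difference of -0.19 ± 0.14 (exact permutation p = 0.21). Its other probe sets reached up to 0.059. Ccnd2, cyclin D2, ranged from 5890 to 8517 (median 6679) in wild-type and from 5169 to 9350 (median 6384) in knock-out brains. Its difference was -0.048 ± 0.134, and its 7 probe sets spanned -0.10 to 0.19. Cdk4, their kinase partner, ranged from 3004 to 5090 (median 3834) in wild-type and from 2913 to 5040 (median 3565) in knock-out brains. The ranges of Cdk4 nearly matched, with a difference of -0.076 ± 0.136. Cyclin E1 (Ccne1) ranged from 241 to 288 (median 269) in wild-type and from 192 to 327 (median 253) in knock-out brains. E2f1, an activator of S phase genes, ranged from 137 to 270 (median 243) in wild-type and from 138 to 250 (median 193) in knock-out brains. Its difference was -0.22 ± 0.17 (exact permutation p = 0.22), and its other probe set was lower too, at -0.38. E2f1 was lower at an unadjusted limma p under 0.05 after quantile normalization (2.34% of all genes), median centring (5.7%) and without litter 219 (0.944%). The same held without wild-type 2 (0.588%) and without wild-type 2 and knock-out 1 (0.526%). No alternative took E2f1 past the adjusted threshold. Ccne2 had a difference of 0.25 ± 0.28, and Cdk2 one of 0.044 ± 0.124.

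**Figure D2:**
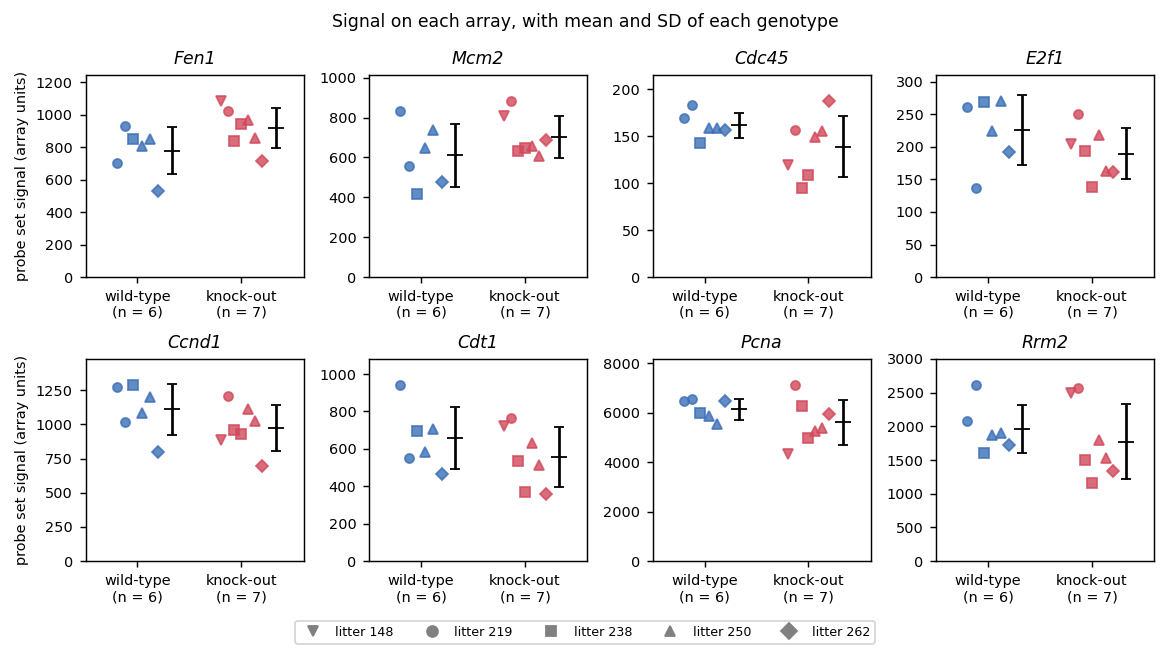
Probe set signal (array units, linear axis from 0) on each array for Fen1, Mcm2, Cdc45, E2f1, Ccnd1, Cdt1, Pcna and Rrm2, with a marker shape for each litter and a bar for the mean and SD of 6 wild-type and 7 knock-out arrays. The 2 genotypes overlap in every panel, and for Pcna the knock-out values run from 4338 to 7128 around wild-type values of 5531 to 6566.

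Several genes were read by more than 1 probe set. Of the 25 members with several above the filter, 14 had probe sets whose differences disagreed in sign, among them Mcm2, Fen1 and Cdc45, which stood at the ends of the range above. The median difference between genotypes was -0.0084 over the 19 tested genes with an E2F match and -0.077 over the 12 with a window and no match.

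Within litters, the sign of the difference was not the same from litter to litter. In litter 219 the knock-out embryo had the higher value for 37 of the 41 genes, with a median difference of 0.35 on the log2 scale. In litters 238, 250 and 262 the knock-out mean was higher for 12, 5 and 9 of the 41, with medians of -0.096, -0.13 and -0.19. Of all 12918 genes tested, 9024 were higher in knock-out in litter 219, and 5677, 7810 and 5740 in litters 238, 250 and 262. The pattern of higher in litter 219 and lower in the other 3 was known for cell cycle genes from earlier results of these data. It was met by 22 of the 41 genes, against 8.5% of all genes. These 22 included 7 of 10 licensing genes, 5 of them in the Mcm2 to Mcm7 ring, all 3 of nucleotide supply and 5 of 7 of G1/S control, but 1 of 5 of helicase activation. All genes tested had medians of 0.16, -0.037, 0.033 and -0.029 in the 4 litters in the same order. With the array factors removed the medians were 0.15, -0.12, -0.16 and -0.15 for the replication genes and -0.041, -0.059, -0.0012 and 0.0041 for all genes. With each array centred on its median, the medians were -0.011, -0.21, -0.26 and -0.26 for the replication genes and -0.203, -0.152, -0.098 and -0.098 for all genes. The sign in litter 219 thus changed with the scaling, while under each of these 3 scalings the median of the replication genes was above that of all genes in litter 219 and below it in the other litters.

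**Figure D3:**
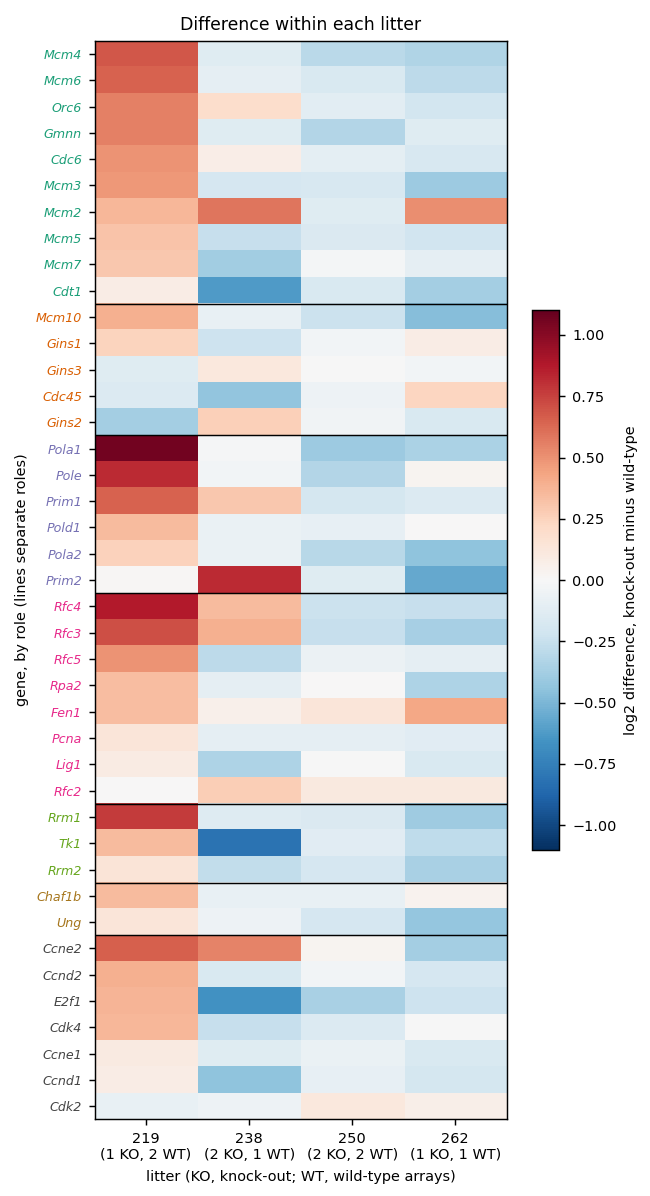
Log2 difference, knock-out minus wild-type, within each of the 4 litters with both genotypes (columns) for the 41 tested genes (rows, grouped by role and separated by lines), with red for higher and blue for lower in knock-out. The litter 219 column is red for 37 of 41 genes, where 9024 of all 12918 genes tested were higher in knock-out. The litter 250 column is above 0 for only 5, against 7810 of all genes tested.

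For litter 219 a contrast was taken, the knock-out effect in litter 219 minus the mean effect in litters 238, 250 and 262. It was chosen because earlier results of these data had shown cell cycle genes higher in the knock-out of litter 219. Its p-values are therefore no independent test of that difference. The median of this contrast was 0.50 over the 41 genes and 0.17 over all genes tested, and it was positive for 35 of 41, against 70.0% of all genes. The test rests on 4 residual degrees of freedom and called 0 of the 41 (limma adjusted p from 0.98 to 1.00), as it called 0% of all genes. At an unadjusted limma p under 0.05 it picked out 4 of the 41, Rfc3, Mcm4, Mcm3 and Rfc5, against 3.17% of all genes. Rfc3 had a contrast of 0.79 ± 0.26 (log2, SE), Mcm4 one of 0.94 ± 0.33, Mcm3 one of 0.73 ± 0.27, Rfc5 one of 0.65 ± 0.26 and Mcm10 one of 0.65 ± 0.30. In litter 219 the Mcm4 signal was 1219 on knock-out 2 against 648 and 873 on its wild-type littermates. The Rfc5 signal was 767 on knock-out 2 against 616 and 470. For both genes knock-out 2, the only knock-out embryo of that litter, was the highest of all 13 arrays. The median contrast was 0.48 for the 19 genes with an E2F match and 0.51 for the 12 without.

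The contrast depended on which wild-type littermate was kept. Without wild-type 2, or with the Actb ratio as a covariate, it called 8 of the 41 genes: Orc6, Gmnn, Mcm4, Pola1, Prim1, Rfc4, Rrm1 and Ccne2 (smallest limma adjusted p = 0.0125 and 0.015). Over all genes tested, the same 2 fits called 1543 and 1329. Without wild-type 1 it called 569 genes, of which Rfc3 and Rfc5 were members (smallest limma adjusted p = 0.0453), and neither had been called without wild-type 2. In both fits that left out an embryo, 1 wild-type embryo stood for litter 219 and was assumed to vary like the others. For Orc6, Gmnn, Mcm4, Pola1, Prim1, Rfc4, Rrm1 and Ccne2, wild-type 1 had the lowest signal of the wild-type embryos. Knock-out 2 gave 1279 for Prim1, 1046 for Rrm1 and 229 for Ccne2, below the 1435, 1075 and 342 of wild-type 2. For the rest of these genes it stood above wild-type 2.

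Array by array, the mean deviation of the 41 genes from their own means over all arrays was highest in knock-out 2, at 0.32, and lowest in knock-out 7, at -0.21. Wild-type arrays lay between -0.12 (wild-type 1) and 0.14 (wild-type 5), so the knock-out group enclosed the wild-type group. The mean deviation over all genes tested was 0.074 on knock-out 2, -0.105 on knock-out 7, -0.136 on wild-type 1 and 0.055 on wild-type 5. Knock-out 2 was the highest array for 15 of the 41 genes and for 9.48% of all genes. With array factors removed knock-out 2 was the highest for 7, with a mean deviation of 0.235 (-0.012 over all genes). Wild-type 1 was then the highest for 12 and wild-type 2 for 11. Both have the lowest array factors, and before the removal they were the highest for 17.2% and 12.2% of all genes. The shares of all genes after it were not counted, so these counts cannot be read as particular to the replication genes. Knock-out 4 and knock-out 7 were the lowest arrays for 8 genes each, against 6.49% and 14.5% of all genes. Without knock-out 2 the median difference between genotypes was -0.097, and without knock-out 7 it was 0.00063, which is the widest span that leaving out 1 embryo gave.

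**Figure D4:**
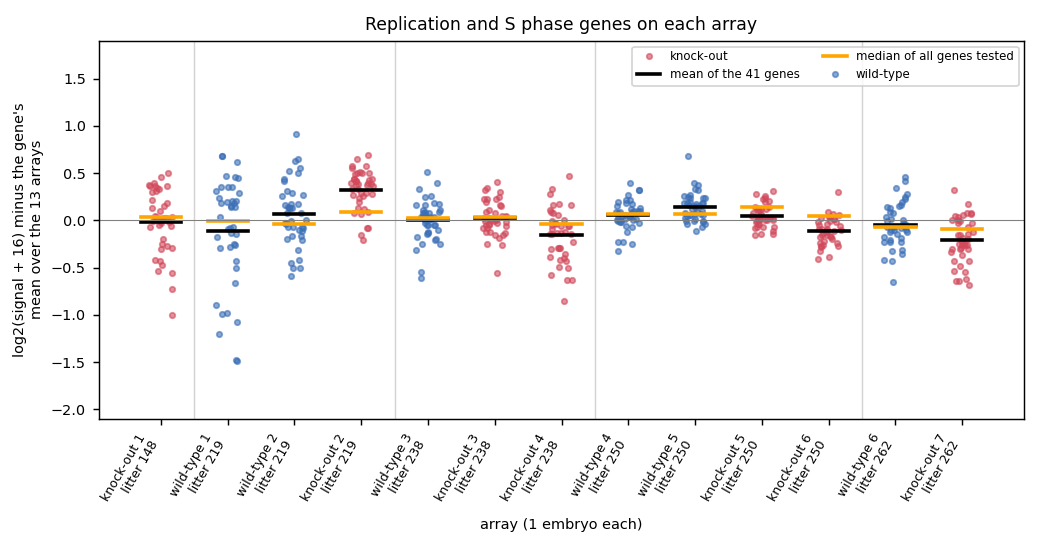
Deviation of log2(signal + 16) from the gene's mean over 13 arrays (vertical axis) for the 41 tested genes on each array, ordered by litter, with the mean of the 41 genes as a black bar and the median of all genes tested as an orange bar. Knock-out 2 has the highest mean (0.32) and knock-out 7 the lowest (-0.21), and wild-type 1 has a group of points far below its mean. The 2 bars are unlike measures: on wild-type 1 all genes tested had a mean of -0.136 and a median of -0.0063.

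Wild-type 1 was the lowest array for 11 of the 41 genes and the highest for 7, shares close to those over all genes (25.0% and 17.2%). For 6 genes it lay more than 1 log2 unit below the mean of the other arrays (9.78% of all genes did so): Pola1 and Prim1, which start DNA chains, Prim2, Rfc4, Rrm1 and Ccne2. These 6 were picked out after their values were seen. The Pola1 signal was 66.7 on wild-type 1 and no lower than 154 (on knock-out 1) on the others. The Rrm1 signal was 340 on wild-type 1 and 392 on knock-out 1, against 741 or more elsewhere. A second probe set was also low on wild-type 1 for the 4 genes that had one above the filter, by -1.01 for Prim1, -0.92 for Prim2, -1.18 for Rfc4 and -1.28 for Rrm1. On wild-type 2, its littermate, Pola1, Prim1, Prim2, Rfc4, Rrm1 and Ccne2 were instead 0.45 to 0.99 above the mean of the other arrays. The second probe sets were 0.75 above it for Prim1, 0.81 for Rfc4 and 0.064 for Prim2, but stood at -0.64 for Rrm1.

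The other genes of the pathway were read from the same arrays. Of 51 further replication genes listed, 48 were tested, 29 had a lower mean, 0 passed the limma test and the median difference was -0.018. Their litter medians were 0.48, -0.024, -0.11 and -0.17. The smallest p among them belonged to Dut, which hydrolyses dUTP, with a difference of -0.16 ± 0.10, followed by Dctd at 0.19 ± 0.15 and Dck at 0.17 ± 0.14. Of 24 further G1/S regulators, 23 were tested, 15 had a lower mean and 0 passed, with a median of -0.040. Their litter medians were 0.195, -0.185, -0.0097 and -0.11. Of the 23, 5 were higher in litter 219 and lower in the other 3, against 8.5% of all genes. E2f6, a repressor of the E2F family, had a difference of 0.21 ± 0.12, the retinoblastoma gene Rb1 by 0.23 ± 0.14 and the kinase inhibitor Cdkn2c by -0.24 ± 0.16. Of 25 mitosis genes, 24 were tested, 20 had a lower mean and 0 passed, with a median of -0.15. In the 4 litters the mitosis medians were 0.62, -0.27, -0.26 and -0.37. Of the 24, 21 were higher in litter 219 and lower in the other 3, against 8.5% of all genes. Knock-out 2 was the highest array for 18 of the 24 and for 9.48% of all genes. The mean deviation of the mitosis genes on knock-out 2 was 0.581, and 0.494 with array factors removed. Ube2c had a difference of -0.28 ± 0.16, Cdk1 by -0.24 ± 0.14 and Aurka by -0.21 ± 0.12.

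Markers of the cells that divide at this age were read beside these values, and their part in the results was not tested. Of 15 neural progenitor genes, 14 were tested, 5 were lower and the median difference was 0.015. Their mean deviation per array ran from -0.077 to 0.11 in wild-type and from -0.29 (knock-out 7) to 0.26 (knock-out 1) in knock-out brains. Hes1, a Notch target, was the only one whose genotypes did not overlap, from 145 to 222 in wild-type and from 227 to 284 in knock-out brains, with a limma adjusted p of 1.00. All 9 cerebellar granule progenitor genes were tested, 8 had a lower mean and the median was -0.15. Their mean deviation was -0.77 on knock-out 7, against -0.16 to 0.26 on the other knock-out arrays and -0.32 to 0.34 on wild-type arrays. The Hedgehog target Gli1 had a difference of -0.27 ± 0.16. Of 8 choroid plexus genes, 7 were tested and 6 were lower, with a median of -0.41. Their mean deviation was -1.08 on knock-out 4 and -1.14 on knock-out 7. It lay between -0.11 and 0.36 on the other knock-out arrays and between -0.25 and 1.05 on wild-type arrays. In litters 219, 238, 250 and 262 the knock-out mean was higher for 0, 1, 7 and 0 of these 7 genes. The medians of the other lists were 0.054 over 17 neuronal, 0.012 over 6 astrocyte, -0.035 over 7 oligodendrocyte lineage, 0.12 over 8 endothelial, 0.033 over 7 microglial, -0.011 over 3 red cell and -0.060 over 7 meningeal genes, and 0 of these genes passed the limma test. Their smallest p values belonged to Syn1, Slc1a2, Sox10, Pecam1, Cx3cr1, Hba-a2 and Bgn in that order of lists, with differences from -0.33 for Bgn to 0.50 for Hba-a2, and to Clic6 (-0.84 ± 0.42) in the choroid plexus list.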

How the data were processed

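Affymetrix arrays of 13 whole brains, 1 per mouse embryo of day 18.5, were analysed. Genotype and replicate number came from the sample titles, litter from the embryo labels. Per the labels' protocols, 5 µg of total RNA was labelled for each array. As deposited, the values are intensities on a linear scale, and the labels state neither software nor scaling. The number of arrays limits the precision. Of 45037 probe sets that are not controls, 34945 carried 1 gene symbol, 932 several and 9160 none, and they named 18193 genes.

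Values were turned into log2(signal + 16). Probe sets above the 40th percentile of mean log2 values were kept, 1 per gene by highest mean, which left 12918 genes. The genotypes were compared, without a term for litter, by the two-sided moderated test of limma (version 3.58.1, R version 4.3.3). Its p-values were adjusted by Benjamini-Hochberg over those genes, and 0.05 was the threshold. Exact permutation tests ran over all 1716 splits of the arrays and ignore litter. The litter contrast came from limma on cell means of genotype by litter. Each embryo is stated to be a biological replicate. Plots used matplotlib 3.10.9 in Python 3.11.15. The members, the lists and the litter contrast were chosen with earlier results of these data known. Those results already showed cell cycle genes higher in the knock-out of litter 219.

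Full values are given for 14 members whatever their p, for the 2 members with the smallest p in each role, for the 5 with the smallest p in the litter contrast, for the 3 with the smallest p in each list of other cell cycle genes, and for 1 gene of each cell type list. Promoters were taken for up to 6 of those members with a match, by smallest p. Rfc3 and Cdc6 also hold upstream matches but ranked after these and are not printed.

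Replicate numbers do not pair the embryos. Of the 6 numbers found in both genotypes, 3 join embryos of the same litter and 3 do not, and the correlations of their deviations from the group means were 0.399, 0.081, 0.125, -0.205, 0.133 and -0.264.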

Additional observations from a re-analysis of the deposited data

Results flagged for a closer look

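In 82 groups of signals (41 genes in 2 genotypes), 7 had 1 embryo set apart from the rest of its genotype by Dixon's gap ratio, where chance gives about 1 in 20. Wild-type 1 was the lowest of its group for Rrm1 (signal 340, gap ratio 0.823) and for Pola1 (66.7, gap ratio 0.801). Wild-type 2 was the lowest for Pola2 (196, gap ratio 0.723) and wild-type 6 for Mcm5 (772, gap ratio 0.702). Knock-out 1, the only embryo of litter 148, was the lowest of its group for Rrm1 (392, gap ratio 0.646) and Rfc3 (346, gap ratio 0.603). Knock-out 2 was the highest for Rfc5 (767, gap ratio 0.58). Wild-type 2 and knock-out 1 are the arrays with the highest Actb 3' to 5' ratios, and wild-type 1 has the lowest array factor, and the part of these measures was not tested.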

How the results depend on the processing

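Under 32 alternatives to the comparison of genotypes, no replication gene passed the adjusted threshold. For 25 of the genes described in full, 734 of 795 recomputed differences kept their direction and 61 did not, and 10 of the 25 genes never turned. All of those that turned had intervals spanning 0. The median of the 41 genes was -0.25 after median centring, which put the median of all genes at -0.153, and lay between -0.097 and 0.00063 when 1 embryo was left out. It was -0.145 after quantile normalization (-0.032 over all genes) and -0.106 with array factors removed (-0.010). With litter as a fixed block it was -0.0018 (0.041), and without litter 219 it was -0.13 (-0.0073). Of the 41 means, 38 were lower after median centring, 36 after quantile normalization, 34 with array factors removed and 21 with litter as a fixed block. At an unadjusted p under 0.05, the lower genes numbered 6 after median centring (5.7% of all genes), 2 after quantile normalization (2.34%), 2 without wild-type 2 and knock-out 1 (0.526%), 1 without litter 219 (0.944%), 1 without litter 262 (0.341%) and 0 to 1 when 1 embryo was left out (0.147% to 0.635%). The higher genes numbered 1 with the Actb ratio as a covariate (3.04%) and 0 to 1 when 1 embryo was left out (1.14% to 2.38%). An exact permutation p under 0.05 was reached by 5 members after median centring (8.18% of all genes), 2 after quantile normalization (2.75%) and 0 to 2 when 1 embryo was left out (1.66% to 2.91%). The median of the G1/S regulators was -0.24 after median centring. The cause of these shifts was not tested.

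With replicate number as a block, which leaves knock-out 7 without a partner, 3 genes in all and 0 members passed, the median of the 41 was 0.00063, and 1 member was lower (Cdc45) and 1 higher (Fen1) at an unadjusted p under 0.05. Under this replicate block the differences that turned were 0.015 for Mcm5, 0.0086 for Ccnd2, 0.0042 for Mcm3 and 0.025 for Mcm10. The numbers do not pair the embryos.

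The differences that turned under other settings were -0.00079 for Cdc6 with a pseudocount of 1, and -0.21 for Cdc6, -0.10 for Chaf1b and -0.0024 for Pole after quantile normalization. Median centring gave -0.19 for Cdc6, -0.17 for Chaf1b and -0.047 for Pole, and removing the array factors gave -0.046 for Cdc6 and -0.022 for Chaf1b. The mean of all probe sets gave 0.021 for Ccnd2, -0.015 for Chaf1b, 0.022 for Cdc45, 0.22 for Pola2 and 0.012 for Mcm4. Litter as a fixed block gave 0.0093 for Ccnd2, 0.0068 for Gins1, 0.11 for Rfc3 and 0.0085 for Rfc5, and as a random block (correlation 0.106) 0.0020 for Rfc3. The Actb covariate gave -0.033 for Chaf1b and 0.020 for Gmnn. Without wild-type 2 and knock-out 1 the values were -0.074 for Chaf1b, 0.017 for Gmnn and 0.021 for Rfc3. Rfc3 stood at 0.11 without litter 148, 0.11 without litter 250 and 0.064 without litter 262. Without litter 219 Cdc6 stood at -0.074, Chaf1b at -0.0095 and Pole at -0.097, and without litter 238 Cdc6 stood at -0.043 and Rfc5 at 0.058. Without litter 250 Gmnn stood at 0.051, Pola2 at 0.026 and Mcm4 at 0.020. With 1 embryo left out the ranges that crossed 0 were -0.13 to 0.018 for Ccnd2, -0.15 to 0.0039 for Cdk4, -0.082 to 0.065 for Cdc6, -0.012 to 0.30 for Pole, -0.050 to 0.13 for Chaf1b, -0.15 to 0.026 for Gmnn, -0.10 to 0.11 for Rfc3, -0.13 to 0.0039 for Rfc5, -0.18 to 0.015 for Mcm5, -0.15 to 0.0042 for Mcm3 and -0.15 to 0.025 for Mcm10. Ranges that kept their sign were wide too, at -0.33 to -0.090 for Tk1, -0.34 to -0.14 for Cdt1, -0.35 to -0.15 for E2f1, -0.21 to -0.036 for Pola2, 0.14 to 0.30 for Fen1 and 0.12 to 0.32 for Mcm2.

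The litter contrast moved more, over 20 alternatives. Its median over the 41 genes was 0.30 with array factors removed, 0.24 after median centring, 0.27 after quantile normalization and 0.33 to 0.53 with 1 embryo left out, always above 0. It called 1329 genes and 8 members with the Actb covariate, and 0 to 1543 genes and 0 to 8 members with 1 embryo left out, where leaving out wild-type 4 or wild-type 5 gave 1 gene. At an unadjusted p under 0.05 it picked out 17 members with the Actb covariate (24.4% of all genes), 1 with array factors removed (3.0%), 1 after quantile normalization (3.67%), 0 after median centring (2.69%) and 2 to 17 with 1 embryo left out (1.68% to 25.8%). The pattern of higher in litter 219 and lower in the other 3 held for 13 members after quantile normalization (6.25% of all genes), 13 after median centring (10.6%) and 13 with the mean of all probe sets (6.45%). The contrast could not be estimated without wild-type 3, wild-type 6, knock-out 2, knock-out 7 or any of the 4 litters with both genotypes.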
